A study of Homo sapiens with 12 samples.

Results

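Toll-like receptors and the proteins they need to signal were followed across iPSC-derived microglia (iMGLs) that carried or lacked LACTB, a mitochondrial protein related to bacterial beta-lactamases. The set held 10 of the 62703 genes in the count table, taken by gene symbol. It comprised 7 receptors (TLR1, TLR2, TLR4, TLR5, TLR6, TLR7 and TLR8), the lipopolysaccharide co-receptors CD14 and LY96 (MD-2), and the adaptor MYD88. All 10 passed the filter on low counts in every comparison.

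Toll-like receptors recognise conserved molecules of microbes and of damaged cells. TLR1, TLR2, TLR4, TLR5 and TLR6 act at the cell surface, while TLR7 and TLR8 bind single-stranded RNA in endosomes. On binding a ligand they recruit the adaptor MYD88, which assembles the IRAK kinases into the Myddosome and leads to NF-kB activation and to cytokine transcription. Microglia, the resident macrophages of the brain, are among the main cells that carry these receptors in the central nervous system.

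The cells came from WTC11, an established human iPSC line, edited with CRISPR to give isogenic clones. There were 3 clonal lines labelled WT (J, K and L, with columns headed SCR for scrambled) and 3 lines labelled LACTB KO (A, B and C), every line deriving from 1 edited clone. Each clone was taken through 2 differentiations, named batches diff1 and diff2 in the labels, so that 12 libraries of poly(A) RNA were sequenced. A library is named here by its clone and differentiation, so J2 is clone J in differentiation 2. All cells passed through hematopoietic precursors and were then kept in IL34 (100 ng/ml), TGFb (50 ng/ml) and MCSF (25 ng/ml), with CX3CL1 and CD200 (100 ng/ml each) from day 24 until collection at day 27. No further treatment was given, and no group was exposed to a Toll-like receptor ligand.

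Library totals lay between 24153233 and 28406943 estimated counts, with a median of 27456867.5. Levels are given as CPM, that is counts scaled to a common library total with TMM factors. LACTB itself stood at 71.3, 81.0, 78.5, 97.9, 76.3 and 75.3 CPM in J1, J2, K1, K2, L1 and L2. It stood at 9.77 and 9.51 CPM in clone A, 7.93 and 7.48 in clone C, and 44.4 and 51.6 in clone B, so clone B, labelled LACTB KO, kept 59.9% of the mean WT transcript level against 12% in clone A and 9.62% in clone C. Clone B stayed below every WT library. The authors state that both alleles of all clones were sequenced to check for frameshifts or early stop codons. Whether the protein of clone B was lost was not tested here, so comparisons by genotype are also given without that clone. The 12 microglia and macrophage markers, among them CSF1R, CX3CR1, P2RY12 and SPI1, were all detected and summed to between 5667 and 6484 CPM. The 12 stromal markers, such as COL1A1 and COL3A1, summed to 9772 CPM in J1 and 4358 in K2, against 81.0 to 1050 CPM in the other libraries. The 6 mast cell and basophil markers summed to 3.59 and 2.05 CPM in clone J and to between 12.1 and 28.1 CPM elsewhere. Sums of the other lists ranged from 79.4 to 141 CPM for granulocytes, 328 to 443 for endothelium, 4.17 to 25.5 for neural cells, 3.78 to 10.1 for the erythroid and megakaryocyte lineage and 0 to 0.579 for pluripotent cells. Single genes made up most of several sums, PECAM1 97.5% or more of the endothelial, CSF3R 98.6% or more of the granulocyte, ITGA2B 95% or more of the erythroid and megakaryocyte and KIT 83.6% or more of the mast cell sum. In bulk libraries of this kind, fewer cells of a type and less RNA per cell cannot be told apart.

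TLR1 and TLR6 overlap on the minus strand of chromosome 4, with TLR6 inside the annotated span of TLR1, and are near-identical over part of their coding sequence, so their counts were examined before any comparison. The longest stretch that both transcripts share, 218 bases of coding sequence with 20 bases on either side, is shown because fragments that fall wholly within it cannot be assigned to either gene. Capitals mark the identical run, and the sequence is on the minus strand of hg38, at chr4:38797216-38797473 for TLR1 and chr4:38827843-38828100 for TLR6.
TLR1: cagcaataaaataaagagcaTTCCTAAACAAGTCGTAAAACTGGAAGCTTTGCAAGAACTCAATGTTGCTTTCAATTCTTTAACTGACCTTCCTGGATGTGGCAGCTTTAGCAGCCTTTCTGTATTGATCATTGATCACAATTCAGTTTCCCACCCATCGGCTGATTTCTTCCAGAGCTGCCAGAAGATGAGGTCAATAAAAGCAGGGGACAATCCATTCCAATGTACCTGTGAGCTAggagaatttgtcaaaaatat
TLR6: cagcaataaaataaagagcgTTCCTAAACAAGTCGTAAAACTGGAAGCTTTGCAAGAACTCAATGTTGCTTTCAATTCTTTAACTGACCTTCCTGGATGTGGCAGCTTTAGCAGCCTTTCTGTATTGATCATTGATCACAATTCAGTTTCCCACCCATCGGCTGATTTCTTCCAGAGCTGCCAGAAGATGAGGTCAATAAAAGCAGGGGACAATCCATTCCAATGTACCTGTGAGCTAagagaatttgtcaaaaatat
The run covers coding bases 1379 to 1596 of 2358 in TLR1 and 1394 to 1611 of 2388 in TLR6. Of all 100-base windows in annotated transcript sequence, 3.24% of those in TLR1 were found in TLR6 and 1.75% of those in TLR6 were found in TLR1, and none in either was found in TLR2 or TLR10. The annotated exons of TLR1 and TLR6 also share 57 bases. Neither gene had a whole-number count in any of the 12 libraries, whereas their sum was whole within 0.005 in 12 of 12. How fragments were split between TLR1 and TLR6 is therefore an estimate, and the level of each is uncertain to that extent. TLR4 likewise shares 678 exonic bases with ENSG00000285082, a gene on the same strand.

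Promoter sequences are shown for 4 members whose levels varied together in pairs over the 12 libraries, TLR2 with CD14 and TLR8 with MYD88. The second pair leaned on clone J, as its correlation of 0.80 fell to 0.48 without that clone, while the first went from 0.84 to 0.82. Of the 10 members, 7 had an entry in the RefSeq promoter table of GRCh38.p14, and TLR1, TLR7 and LY96 did not. The 250 bases before the RefSeq start are printed in the direction of transcription, at chr4:153684030-153684279 (plus strand) for TLR2, chr5:140633176-140633425 (minus strand) for CD14, chrX:12906370-12906619 (plus strand) for TLR8 and chr3:38138411-38138660 (plus strand) for MYD88. The gene spans given below come from another annotation, and by them the CD14 window lay inside its gene. The TLR2 and MYD88 windows reached into their genes, and the TLR8 window ended before its gene. Capitals mark matches to the motifs named after the sequences.
TLR2: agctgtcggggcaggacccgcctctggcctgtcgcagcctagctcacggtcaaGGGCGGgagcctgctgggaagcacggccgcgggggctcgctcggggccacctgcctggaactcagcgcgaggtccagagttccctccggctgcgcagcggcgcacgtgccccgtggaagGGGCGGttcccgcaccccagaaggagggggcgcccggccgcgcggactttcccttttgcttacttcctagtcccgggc
CD14: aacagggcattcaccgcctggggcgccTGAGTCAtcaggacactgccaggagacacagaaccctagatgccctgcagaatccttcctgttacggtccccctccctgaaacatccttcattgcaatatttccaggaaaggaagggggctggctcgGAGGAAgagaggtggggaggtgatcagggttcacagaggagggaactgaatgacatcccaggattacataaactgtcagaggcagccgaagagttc
TLR8: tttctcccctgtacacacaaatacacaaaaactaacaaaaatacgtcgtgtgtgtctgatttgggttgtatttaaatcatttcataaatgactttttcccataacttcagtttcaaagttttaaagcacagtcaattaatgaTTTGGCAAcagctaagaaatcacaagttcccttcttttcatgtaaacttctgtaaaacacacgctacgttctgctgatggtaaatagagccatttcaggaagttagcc
MYD88: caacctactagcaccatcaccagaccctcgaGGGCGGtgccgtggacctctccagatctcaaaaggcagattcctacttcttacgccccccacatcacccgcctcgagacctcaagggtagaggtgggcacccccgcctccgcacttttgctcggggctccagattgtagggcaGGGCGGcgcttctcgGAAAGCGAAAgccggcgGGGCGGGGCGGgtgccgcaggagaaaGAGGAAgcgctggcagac
Both strands of each window were searched for 7 motifs. GAGGAA, the core bound by ETS factors such as PU.1, was found in 4 of the 7 promoters (CD14, MYD88, TLR4 and TLR6) and in 23.6% of all 35116 promoters. CCGCCC, the GC box, was found in MYD88, TLR2, TLR4 and TLR5, against 42.6% of all promoters, and it reads GGGCGG where it lies on the other strand. MYD88 had 4 such boxes and also the interferon-stimulated response element (GAAA, any 2 bases, GAAA). That element lay 61 to 52 bases before the RefSeq start of MYD88, and 3.02% of promoters hold it. CD14 held the AP-1 motif TGANTCA (6.57% of promoters) and TLR8 held TTNNGCAA (9.05%), a form of the C/EBP motif. TATAAA (10.7% of promoters) and an exact decamer form of the NF-kB site (0.179%) had no match in the 7 windows. Variant forms of the NF-kB site were not searched, so it cannot be said that these promoters lack it. The pairs that varied together thus had no motif of this list in common within TLR8 and MYD88 or within TLR2 and CD14. A match of letters is a description and not a site of binding.

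The first question was how strongly these unstimulated iMGLs express each gene. Levels of different genes were compared as CPM per kilobase of annotated exons, here as the mean of 12 libraries with its SD. TLR7, an RNA receptor of endosomes, had the highest mean at 42.7 ± 3.38. TLR2, which pairs with TLR1 or TLR6 to bind bacterial lipopeptides, followed at 40.6 ± 10.2 and CD14 at 36.5 ± 16.8. MYD88 reached 28.4 ± 4.15 and TLR1 21.7 ± 1.96. LY96, which sits on TLR4 and forms its lipopolysaccharide pocket, had 17.8 ± 11.8, TLR6 16.2 ± 1.68, TLR8 15.5 ± 3.10 and TLR4 11.4 ± 2.6. TLR5, the flagellin receptor, was far below at 0.383 ± 0.256, so that the highest mean exceeded the lowest 111-fold.

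**Figure D1:**
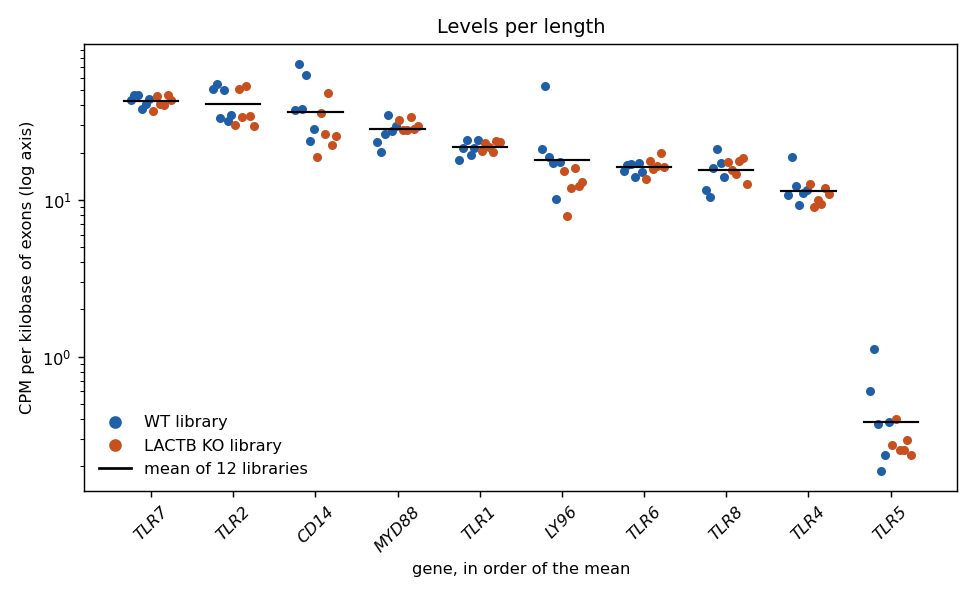
Level of each member in the 12 libraries as CPM per kilobase of annotated exons on a log axis, with genes in the order of their mean, WT libraries in blue, LACTB KO libraries in orange and the mean as a black bar. TLR5 lies below all other members in every library, with a mean of 0.383 against 11.4 for TLR4, the next in order.

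Most neighbours in this order were not separated. The ranges of the 12 libraries overlapped for 8 of the 9 neighbouring pairs, and only TLR4 and TLR5 did not overlap. TLR7 exceeded TLR2 in 7 of 12 libraries, and LY96 exceeded TLR6 in 6 of 12. MYD88 exceeded TLR1 in 11 of 12. The order also depended on the length used. With the longest annotated transcript TLR2 (55.8) passed TLR7 (44.4) and TLR1 (34.6) passed MYD88 (29.0). The highest mean then exceeded the lowest 79.6-fold. TLR10, a receptor of the TLR1 family that is not in the set, stood at 51.9 CPM per kilobase of exons and so above all 10 members on that scale.

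The members differed widely in how much they varied among libraries. The coefficient of variation of CPM was 7.9% for TLR7, 9.0% for TLR1, 10.3% for TLR6 and 14.6% for MYD88, beside a median of 10.2% over the 4186 tested genes of 50 to 500 CPM. It was 19.9% for TLR8, 22.7% for TLR4 and 25.2% for TLR2. CD14 (46.1%), LY96 (66.1%) and TLR5 (66.7%) were the most variable. Library J2 set much of this spread, since without it the coefficient was 27.1% for LY96, 36.8% for TLR5 and 11.4% for TLR4, with CD14 then the highest at 38.8%. For TLR7, TLR1 and TLR6 it was 7.9%, 9.4% and 10.8% without J2.

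**Figure D2:**
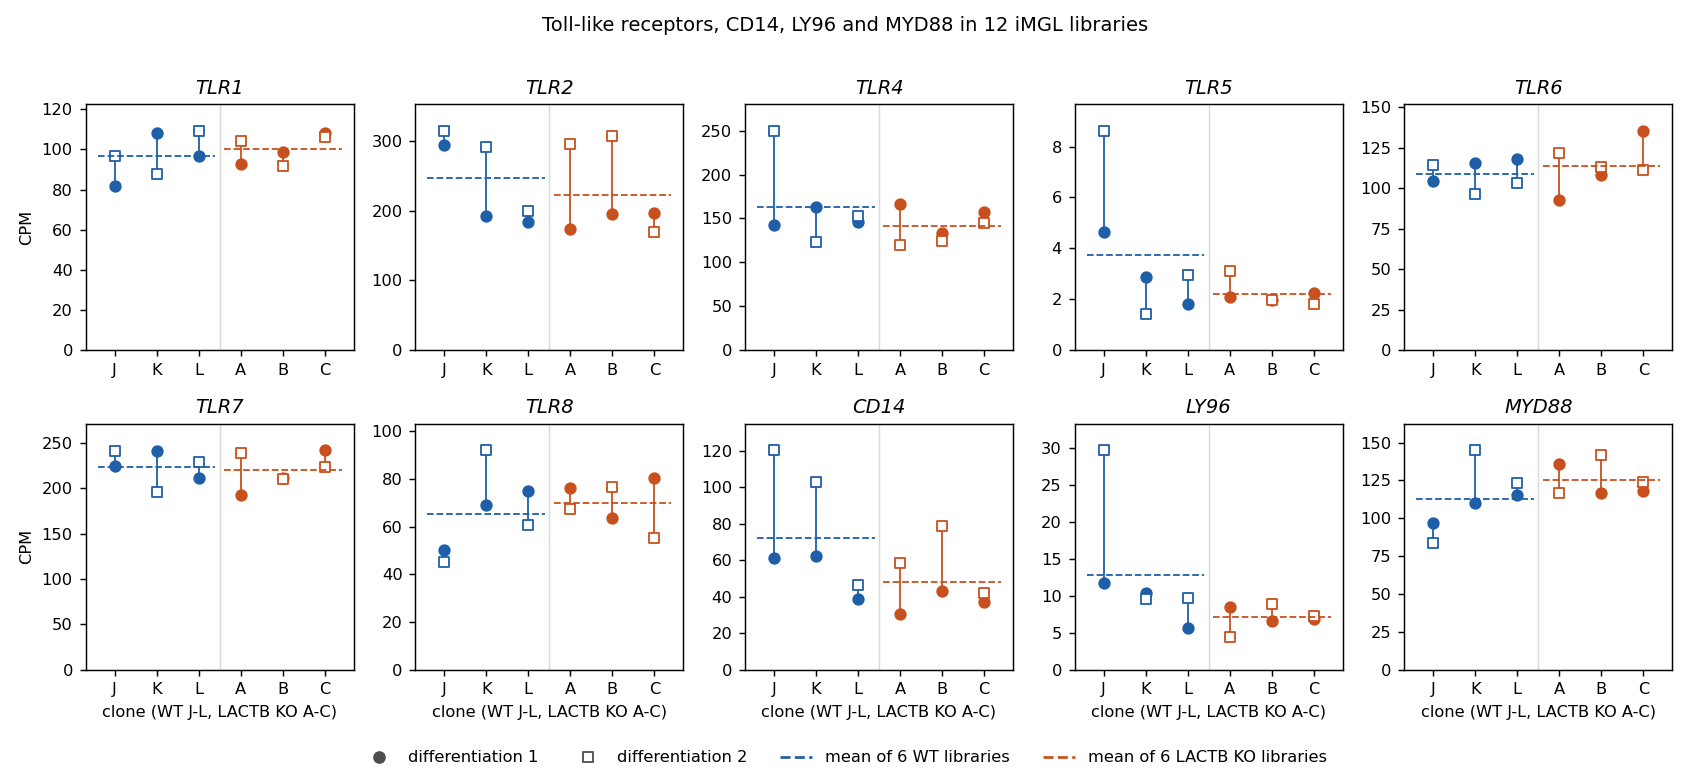
CPM of each member by clone, with differentiation 1 as filled circles, differentiation 2 as open squares, WT clones J to L in blue, LACTB KO clones A to C in orange and dashed lines at the mean of each genotype's 6 libraries. In LY96, TLR4 and TLR5 library J2 stands above the rest (29.7, 249.8 and 8.62 CPM), while the TLR7 libraries stay between 192.4 and 242.2 CPM.

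The second question was whether loss of LACTB altered these levels. No member passed the threshold. Counts of the 2 differentiations were summed per clone and 3 WT clones were set against 3 LACTB KO clones in edgeR, using its quasi-likelihood test and Benjamini-Hochberg adjustment over 17577 genes, at an adjusted p under 0.05. The test called 0 of the 10 members, and it called 0 genes in all, a background of 0.0%. LACTB itself was not called, at a log2 fold change of -1.87 (edgeR unadjusted p = 0.0282, adjusted p = 0.735). The 0 calls therefore do not show that the members were unchanged. At an unadjusted p under 0.05, 0 members stood beside 1118 genes (6.36%), of which 977 were lower in LACTB KO (5.56%) and 141 higher (0.802%). DESeq2 called 171 genes at the same adjusted threshold and none of the members. The 0 members at an unadjusted p under 0.05 became 2, CD14 and LY96, under DESeq2, where 1210 of 17577 genes were marked. The same 2 were marked in edgeR with no filter on low counts (2030 of 36979 genes) and without clone L (1983 of 17983). They were also marked with differentiation as a replicate block (1094 of 15530), a fit that counts the 2 libraries of a clone as independent. Only CD14 was marked in differentiation 1 alone (504 of 15708), and only LY96 without clone K (1293 of 18037). No member was marked without clone J (768 of 17916) or without clone B (888 of 18100). Without clone B the log2 fold changes ran from -0.92 (LY96) to 0.14 (MYD88). Of the members 4 had a positive and 6 a negative log2 fold change, with a median of -0.07 against 0.01 over all genes tested. In no member were the 3 KO clones all above or all below the 3 WT clones, whereas 10.3% of all genes showed such separation, 4.06% with the KO clones above and 6.23% with them below.

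Among the surface receptors, TLR2 (chromosome 4, 153684070 to 153706260, plus strand) ranged from 184.2 to 314.0 CPM in WT with a median of 245.5, and from 169.5 to 306.1 in LACTB KO with a median of 195.8. The groups overlapped almost entirely, and the log2 fold change was -0.13 (SE 0.189, 95% interval -0.58 to 0.32, edgeR adjusted p = 0.911). TLR4 (chromosome 9, 117704175 to 117724735, plus strand), the lipopolysaccharide receptor, ran from 122.8 through a median of 149.5 to 249.8 CPM in WT and from 119.9 through 139.0 to 166.7 in LACTB KO. Apart from J2, at 249.8, the WT and KO libraries covered nearly the same range. Its log2 fold change was -0.21 (SE 0.133, 95% interval -0.52 to 0.11, edgeR adjusted p = 0.878), and -0.06 without clone J. TLR5 (chromosome 1, 223109404 to 223143248, minus strand) had 1.44 to 8.62 CPM in WT, median 2.91, and 1.82 to 3.10 CPM in LACTB KO, median 2.04. Its difference of -0.74 on the log2 scale (SE 0.451, 95% interval -1.81 to 0.33) became -0.03 when clone J was left out.

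TLR1 (chromosome 4, 38790677 to 38856817, minus strand) covered 81.7 to 109.3 CPM in WT (median 96.8) and 91.9 to 108.0 CPM in LACTB KO (median 101.2). TLR6 (chromosome 4, 38822897 to 38856817, minus strand) covered 96.3 to 118.1 CPM in WT (median 109.5) and 92.9 to 135.4 CPM in LACTB KO (median 112.2). The KO libraries of TLR1 lay within the WT range. For TLR6, 2 KO libraries lay above every WT library and 1 lay below. The log2 fold changes were 0.06 (95% interval -0.13 to 0.25) for TLR1 and 0.08 (-0.09 to 0.25) for TLR6, and 0.07 for their summed counts, which do not depend on how shared fragments were split.

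The endosomal receptors also overlapped between genotypes. TLR7 (chromosome X, 12867072 to 12890361, plus strand) ran from 196.1 to 241.5 CPM in WT, median 226.8, and from 192.4 to 242.2 in LACTB KO, median 218.0. Its log2 fold change of -0.02 had a 95% interval of -0.18 to 0.15, the narrowest of the 10 members. TLR8 (chromosome X, 12906620 to 12923169, plus strand) ran from 45.2 to 92.1 CPM in WT, median 64.8, and from 55.2 to 80.6 in LACTB KO, median 71.9. The KO libraries of TLR8 sat inside the WT range, with a log2 fold change of 0.10 (95% interval -0.33 to 0.53).

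The largest difference relative to its error belonged to LY96 (chromosome 8, 73991392 to 74029079, plus strand). It stood at 11.8, 29.7, 10.4, 9.53, 5.64 and 9.73 CPM in the WT libraries J1, J2, K1, K2, L1 and L2. In the KO libraries A1, A2, B1, B2, C1 and C2 it stood at 8.57, 4.39, 6.67, 8.88, 6.81 and 7.26 CPM. All 6 KO libraries were below the WT median of 10.1, but L1 lay among them. The log2 fold change was -0.85 (SE 0.360, 95% interval -1.71 to 0.005, unadjusted p = 0.0510, adjusted p = 0.783 by edgeR). An exact permutation test of the 6 clone means gave a two-sided p = 0.2, where 0.1 is the smallest that 3 clones against 3 allow. The difference was -0.34 in differentiation 1 alone and -1.26 in differentiation 2 alone. It was -0.32 without clone J and -0.92 without clone B. Estimated counts of LY96 were between 119 and 797 per library.

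CD14 (chromosome 5, 140631728 to 140633700, minus strand), which passes lipopolysaccharide to TLR4 and LY96, covered 38.9 to 120.3 CPM in WT with a median of 61.8, and 30.8 to 78.5 CPM in LACTB KO with a median of 42.7. Of the KO libraries 5 of 6 were below the WT median. The log2 fold change was -0.56 (SE 0.297, 95% interval -1.27 to 0.15, edgeR adjusted p = 0.878, exact permutation p = 0.3), and it was close to that in differentiation 1 alone (-0.55) and in differentiation 2 alone (-0.59). It was -0.36 without clone J, -0.83 without clone L and -0.75 without clone B. MYD88 (chromosome 3, 38138552 to 38143024, plus strand) ran the other way, from 84.0 to 145.0 CPM in WT, median 112.6, and from 116.7 to 141.8 in LACTB KO, median 121.3. All 6 KO libraries were above the WT median, within the WT range. Its log2 fold change of 0.16 (95% interval -0.15 to 0.47, exact permutation p = 0.3) became 0.02 without clone J. For the other 7 members the exact permutation p was between 0.4 and 0.8. Stromal markers moved with genotype beside these values, 10 of the 11 tested being lower in LACTB KO and 9 of them at an unadjusted p under 0.05. Without J1 and K2, the libraries richest in them, the log2 fold change was -1.16 for LY96, -0.62 for CD14 and 0.27 for MYD88. That setting keeps J2 as the only library of clone J, with the highest LY96 and CD14 and the lowest MYD88 of all libraries. Without clone J as a whole the values were -0.32, -0.36 and 0.02. The part of the stromal content in these values was not tested.

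**Figure D3:**
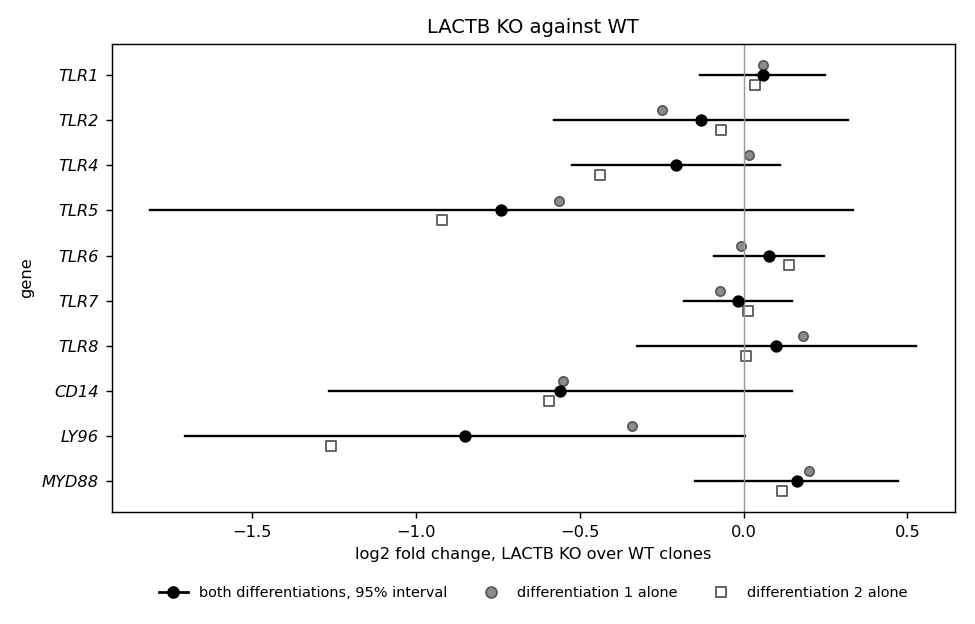
Log2 fold change of LACTB KO over WT clones for each member, with black points and bars for both differentiations summed and their 95% intervals, filled grey circles for differentiation 1 alone and open squares for differentiation 2 alone. The intervals of all 10 members include 0, and that of LY96 reaches from -1.71 to 0.005.

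The third question was whether the differentiations of a clone agreed. Differentiation 2 was compared with differentiation 1 within clones by edgeR's quasi-likelihood test over 16681 genes. No member and no gene passed an adjusted p under 0.05, a background of 0.0%, while at an unadjusted p under 0.05 the test marked 2 of 10 members, both higher in differentiation 2, beside 934 genes higher (5.6%) and 618 lower (3.7%). DESeq2 called 297 genes here. These members were CD14 and TLR2.

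CD14 was 61.4 and 120.3 CPM in the differentiations 1 and 2 of clone J, 62.2 and 102.9 in clone K, and 38.9 and 46.3 in clone L. In the KO clones it was 30.8 and 58.6 CPM in clone A, 43.2 and 78.5 in clone B, and 37.0 and 42.1 in clone C. It was thus higher in differentiation 2 in 6 of 6 clones, which held for 3.57% of all genes (the opposite held for 2.72%), though by little in L and C. The log2 difference was 0.66 (SE 0.121, 95% interval 0.38 to 0.94, unadjusted p = 0.000648, adjusted p = 0.206 by edgeR). CD14 passed the threshold under DESeq2 (adjusted p = 9.62e-05), which called 297 of 16681 genes. CD14 also passed in edgeR with no filter on low counts (adjusted p = 0.0107), where 80 of 36979 genes were called. TLR2 was higher in differentiation 2 in 5 of 6 clones, as were 14.2% of genes in 5 clones or more. Its level went from 192.3 to 291.2 CPM in clone K, from 173.0 to 294.8 in clone A and from 194.6 to 306.1 in clone B. In clone J it was 293.8 and 314.0 CPM, in clone L 184.2 and 199.9, and in clone C 197.0 and 169.5. The log2 difference of TLR2 was 0.34 (SE 0.135, edgeR unadjusted p = 0.0376, adjusted p = 0.498). For the other 8 members the log2 difference was between -0.08 and 0.26, and the unadjusted edgeR p was 0.366 or more.

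**Figure D4:**
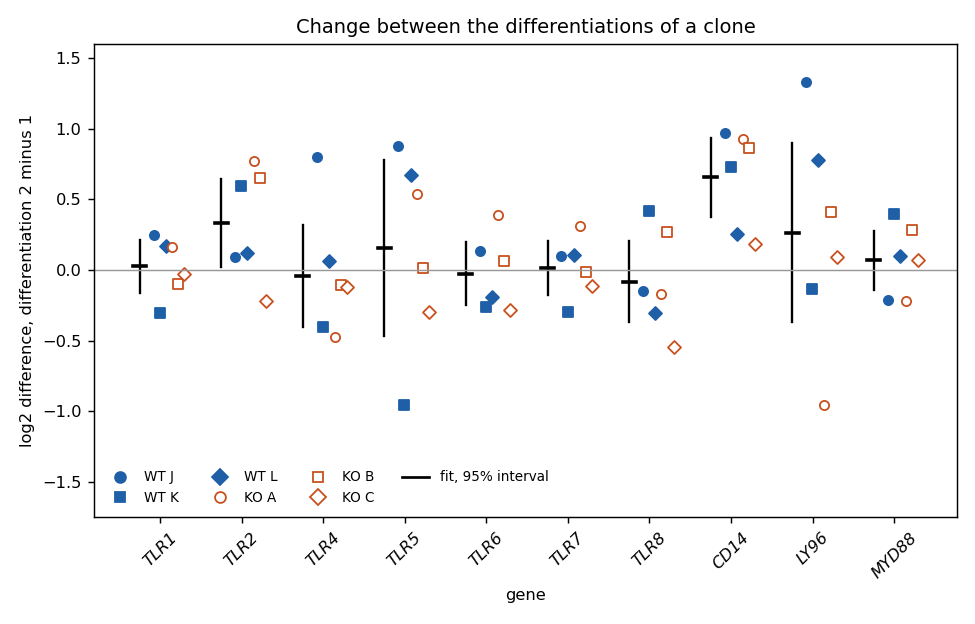
Log2 difference of differentiation 2 minus differentiation 1 for each member, as one point per clone (filled blue for WT, open orange for LACTB KO) beside the fitted value and its 95% interval in black. All 6 clones lie above 0 for CD14 and 5 of 6 for TLR2, while LY96 spreads from -0.95 in clone A to 1.33 in clone J.

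The change between differentiations was also compared between genotypes, as an interaction over the same 16681 genes. It called 0 members and 0 genes at an adjusted p under 0.05 (0.0%) in edgeR, with 153 genes at an unadjusted p under 0.05 (0.917%, 0.492% higher and 0.426% lower), and DESeq2 also called 0. LY96 had the largest interaction among the members, at -0.82 (95% interval -2.0 to 0.36, which includes 0), followed by TLR4 at -0.39 (-1.11 to 0.32). With 1 clone left out LY96 ranged from -1.23 (without clone K) to -0.42 (without clone A), and TLR4 from -0.68 (without clone K) to -0.0659 (without clone J). CD14 gave 0.004 with a 95% interval of -0.60 to 0.61, so its difference between differentiations was not distinguishable between WT and KO clones within that interval.

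Clones of one genotype were compared with each other by an edgeR F test on 4 degrees of freedom, with differentiation as a term. It called 7 of 17335 genes (0.0404%), LACTB among them (adjusted p = 0.00127), and 0 members. At an unadjusted p under 0.05 it marked CD14 (adjusted p = 0.321 by edgeR) and TLR5 (adjusted p = 0.559 by edgeR), where 8.51% of genes were marked. CD14 had its highest clone means in J and K and low values in L, A and C. DESeq2's likelihood ratio test gave CD14 an adjusted p of 0.000398, and it called 712 genes against the 7 of edgeR.

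The members did not vary as a block. Over the 12 libraries, which share clones and differentiations, log2 CPM of TLR2 and CD14 had a Pearson correlation of 0.84, and 0.82 over the 10 libraries without clone J. TLR6 and TLR7 had 0.74 (0.78 without clone J). Other pairs leaned on that clone. TLR8 and MYD88 went from 0.80 to 0.48 without it, TLR4 and LY96 from 0.78 to 0.36, and TLR5 and LY96 from 0.72 to -0.12. TLR5 and MYD88 varied in opposite directions, at -0.88 (-0.56 without clone J). Library J2 held the highest CPM of CD14, LY96, TLR2, TLR4 and TLR5 and the lowest of TLR8 and MYD88. The mast cell and basophil markers were low in the same clone, with 5 of their 6 genes under 1 CPM in every library, and their part in these correlations was not tested.

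**Figure D5:**
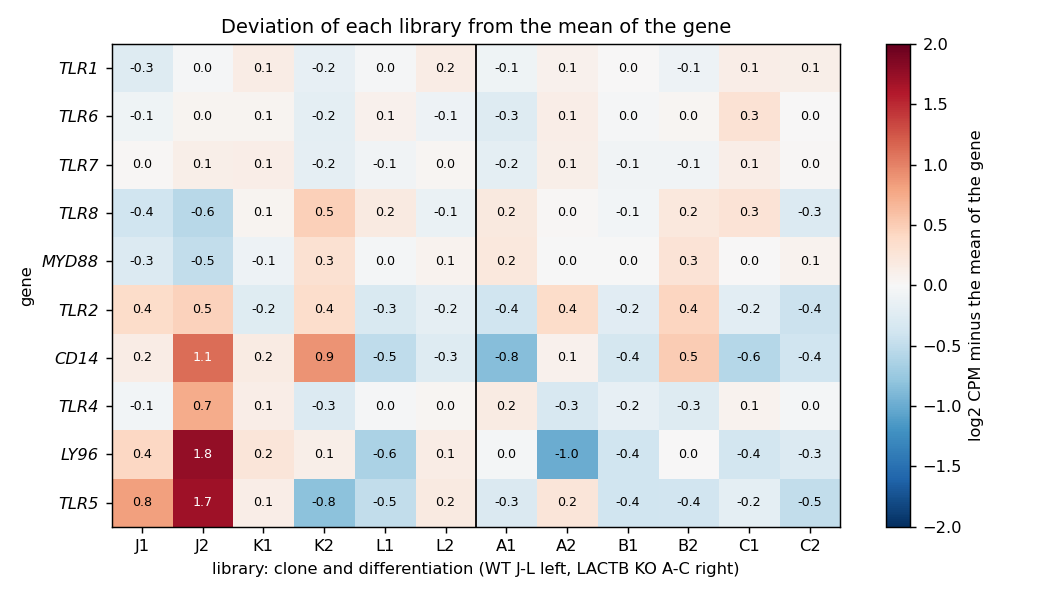
Log2 CPM of each member in each library minus the mean of that gene over the 12 libraries, with WT libraries to the left of the line and LACTB KO libraries to the right. The deepest red cells are LY96 and TLR5 in J2, while the TLR1, TLR6 and TLR7 rows are nearly flat.

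The genes whose levels followed the members most closely were sought over the same 12 libraries, as a description. The mean of the 10 z-scored members correlated best with ATRN (0.93), COLEC12 (0.93), a scavenger receptor, and LY9 (0.92), a SLAM family receptor. TLR7 correlated best with SNX13, RMDN1 and C22orf39 (0.88 each). Of other members, TLR2 came closest to CHI3L1 (0.96), TLR4 to the lysosomal protease LGMN (0.96) and MYD88 to the phosphatase PTPN2 (0.97), genes picked after their values were seen.

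The rest of the pathway was taken from fixed lists, and none of their genes passed an adjusted p under 0.05 in LACTB KO against WT or between differentiations by edgeR. The counts that follow are of genes at an unadjusted p under 0.05, to be read against the backgrounds of 6.36% and 9.3%. Among 5 other receptors (TLR3, TLR9, TLR10, CD180 and LY86) there were 0 in either comparison. TLR10 ran from 120.0 to 259.6 CPM in WT and from 205.5 to 286.7 CPM in LACTB KO, lowest in clone J (132.7 and 120.0), with a log2 fold change of 0.27 (SE 0.251, edgeR unadjusted p = 0.318). CD180, a receptor related to TLR4, was steady at 171.3 CPM in WT and 173.5 in LACTB KO.

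Of 12 tested chaperones, proteases and accessory proteins, 2 were marked in LACTB KO against WT, both lower. They were CD36, a co-receptor of TLR2 and TLR6, at 148.0 ± 45.4 CPM in WT and 113.6 ± 23.2 in LACTB KO (SD, n = 6 libraries each; log2 fold change -0.38, edgeR unadjusted p = 0.0256, adjusted p = 0.729), and the protease CTSK. CTSK had 19.0 ± 29.3 CPM in WT and 3.93 ± 1.25 in LACTB KO (SD), so its WT spread exceeded its mean. The 4 other TIR adaptors (TIRAP, TICAM1, TICAM2 and SARM1) had 0 in both comparisons. Of 10 Myddosome kinases and ubiquitin ligases, 0 were marked by genotype and 1 by differentiation, TRAF3, which was higher in differentiation 2 in 6 of 6 clones (log2 difference 0.25, edgeR unadjusted p = 0.00715, adjusted p = 0.341).

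In the list of TAK1, IKK and NF-kB, 1 of 12 genes was marked in each comparison, and both times it was RELB, a subunit of the noncanonical NF-kB pathway. RELB had a log2 fold change of -0.21 in LACTB KO (edgeR unadjusted p = 0.0418, adjusted p = 0.760) and a log2 difference of 0.22 in differentiation 2. Of 5 genes for TBK1 and interferon regulatory factors, 0 were marked by genotype and 1 by differentiation (IKBKE, 0.20 on the log2 scale, edgeR unadjusted p = 0.0208). Among 16 tested inhibitors of Toll-like receptor signaling, 1 was marked lower in LACTB KO (TNIP3, at 0.801 CPM in WT and 0.357 in LACTB KO) and 5 were marked higher in differentiation 2. These included IRAK3, the kinase-like brake on the Myddosome, at 153.0 ± 28.7 CPM in differentiation 1 and 205.1 ± 23.1 in differentiation 2 (SD, n = 6 each; log2 difference 0.43, edgeR unadjusted p = 0.00706, adjusted p = 0.340). ZC3H12A, an RNase that degrades cytokine messages, went from 34.7 ± 2.81 to 43.2 ± 3.49 CPM (SD; 6 of 6 clones), and PIK3AP1 from 333.1 ± 37.5 to 403.1 ± 32.5 CPM (SD; 5 of 6 clones).

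Of 11 tested target genes, which these receptors are known to induce, 0 were marked by genotype and 2 by differentiation, SOD2 (0.32 on the log2 scale) and the low-level chemokine CCL5 (0.91). Their median log2 fold change in LACTB KO was -0.39 against 0.01 for all genes, and their median log2 difference between differentiations was 0.39 against -0.004. With 11 genes each median is the value of 1 gene, and both genes were near the floor. They were CXCL10 for genotype (0.665 CPM in WT, 0.499 in LACTB KO) and IL6 for differentiation (0.230 and 0.273 CPM in differentiations 1 and 2). These medians hid opposite clones, as the median over the 11 targets of differentiation 2 minus 1, on log2(CPM + 1), was 1.28 in clone L, 1.23 in C and 0.40 in J, but -0.38 in K, -0.38 in A and -0.86 in B. Libraries L2 and C2 stood high, with PTGS2 at 309.6 and 225.3 CPM against 11.2 to 114.7 in the other 10, CXCL8 at 235.4 and 229.7 against 24.9 to 121.2, and TNF at 142.4 and 292.8 against 52.1 to 108.4. DUSP1, a phosphatase in the list of inhibitors, was at 745.8 and 859.5 CPM in these libraries and at 42.1 CPM in B2, genes picked after their values were seen. IL6 (0.344 CPM in WT, 0.159 in LACTB KO) was barely detected, and IL12B and IFNB1 were too low to test. Among 9 endogenous ligands, 3 matrix proteins (FN1, DCN and VCAN) were marked lower in LACTB KO, with FN1 at 1680 ± 2248 CPM in WT and 260.3 ± 333.2 in LACTB KO (SD, n = 6 each). The stromal markers of J1 and K2 moved with these genes, and their part was not tested. S100A8 and S100A9, alarmins that bind TLR4, were marked higher in differentiation 2, S100A8 at 12.9 ± 4.74 and 38.7 ± 35.4 CPM (SD; higher in 5 of 6 clones) and S100A9 at 141.7 ± 48.5 and 265.8 ± 178.6 CPM (SD; 4 of 6 clones).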

How the data were processed

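Poly(A) RNA was prepared with TruSeq and read as 150-base pairs. The values analysed are estimated counts per gene that the authors deposited, made from reads aligned to GRCh38 per the labels. Between 10.8% and 11.5% of the values per library were not whole, as arises where fragments shared between genes are divided among them. Whether counting used strand is not given in the sources used here. Gene positions and lengths come from GENCODE release 44.

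Estimated counts were rounded and TMM-scaled. Genes with low counts were removed with filterByExpr, and edgeR 4.0.16 in R 4.3.3 gave quasi-likelihood tests with Benjamini-Hochberg adjustment over all genes tested (threshold 0.05). For LACTB KO against WT the clone was the replicate, with its 2 libraries summed, and p-values measure the spread between clones. Differentiations were compared with clone as a term. Log2 CPM used a prior count of 2. Alternatives used DESeq2 1.42.0, limma 3.58.1 (voom with clone as random effect), other scaling, no filter, each differentiation alone and each clone left out. The fits were tested on simulated data with the same relative spread for every gene. What they can detect in the real data was thus not measured.

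Members and lists were chosen with earlier results of these data known. Named genes were the members, LACTB, up to 3 genes per pathway list with the smallest p in either comparison, not all of which are printed, and the 3 genes most correlated with the mean of the members and with TLR7. Removing J1 and K2, summing TLR1 with TLR6 and taking the coefficient of variation without J2 were alternatives chosen after seeing the data. Each library's precision is set by its total of 24153233 to 28406943 counts, and the intervals given are 95%.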

Additional observations from a re-analysis of the deposited data

Results flagged for a closer look

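A library stood far from the other 5 of its genotype in 3 of the 20 groups of 6 libraries examined, where chance flags about 1 group in 20. TLR4 in WT library J2 was 249.8 CPM, with a gap to the next library of 0.688 of the whole WT range. LY96 in the same library was 29.7 CPM, with a gap of 0.746 of the range. TLR5 in LACTB KO library A2 was 3.10 CPM, with a gap of 0.659 of the range, at a level where the KO libraries lay between 1.82 and 3.10 CPM.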

How the results depend on the processing

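The scaling, the filter on low counts, the tool, the differentiation used and the clones included were varied. Genes called in LACTB KO against WT went from 0 to 2 with no filter and 171 with DESeq2, and lay between 0 and 1 with 1 clone left out. Between differentiations the count was 80 with no filter, 297 with DESeq2, 10 in LACTB KO clones alone, and 0 to 44 with 1 clone left out (44 without clone J). The spread between clones gave 198 genes with no filter and 712 with DESeq2, against 7. Members whose KO and WT clones did not overlap numbered 1 in differentiation 1 alone (MYD88, higher), 1 in differentiation 2 alone (LY96, lower) and 0 to 2 with 1 clone left out. The share of all genes that separated was 10.3% with all libraries and was not taken in these settings. Separation is also easier with fewer clones, so these counts are not read as a result about the members. With differentiation as a replicate block, where the 2 libraries of a clone count as independent, LACTB KO against WT called 0 genes. Without clone as the replicate block the differentiation test called 2. The same-numbered differentiations of WT and KO clones had deviations that correlated at 0.0323 on average (-0.464 to 0.577 over 18 pairs). Differently numbered ones correlated at -0.0313 (-0.527 to 0.352 over 18 pairs), so the 2 kinds of pair overlapped widely. The causes of these shifts were not tested. CD14 was the only member called in any alternative, and 10 of 141, 14 of 120 and 17 of 90 values of members changed sign for genotype, differentiation and interaction. The genotype log2 fold change changed sign for TLR4 (0.0150) and TLR6 (-0.0068) in differentiation 1 alone, for TLR7 (0.0124) in differentiation 2 alone and for TLR1 (-0.0322) without J1 and K2. The differentiation difference did so for TLR4 (0.15) and TLR7 (-0.0360) in WT alone, and for TLR6 (0.0682) and LY96 (-0.13) in LACTB KO alone. With 1 clone left out, the genotype values that changed sign ranged over TLR1 -0.00458 to 0.10, TLR2 -0.28 to 0.0435, TLR7 -0.0507 to 0.0167 and TLR8 -0.0902 to 0.28. The differentiation values did so over TLR1 -0.0200 to 0.11, TLR4 -0.21 to 0.0568, TLR5 -0.00438 to 0.39, TLR6 -0.0975 to 0.0371, TLR7 -0.0327 to 0.0947 and TLR8 -0.17 to 0.0198. The interaction values did so over TLR1 -0.21 to 0.0752, TLR2 -0.0568 to 0.43, TLR5 -0.72 to 0.23, TLR6 -0.00839 to 0.32, TLR7 -0.0565 to 0.17, TLR8 -0.35 to 0.0655, CD14 -0.18 to 0.23 and MYD88 -0.21 to 0.0840. LY96 kept its sign for genotype, from -1.11 to -0.32 (without clone J), and CD14 from -0.83 to -0.36. With 3 clones a genotype, the intervals for LY96, CD14 and TLR5 were wide.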

Other observations

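Outside the members, some pathway genes stood apart in single clones. IRAK4, the kinase that MYD88 recruits first (chromosome 12, 43758944 to 43798307, plus strand), was at 18.6 and 17.8 CPM in the libraries of KO clone B. In the 10 other libraries it ranged from 34.6 to 44.5 CPM, with a mean of 39.4 ± 3.10 (SD), and the clone B libraries averaged 46.2% of that mean. The edgeR F test between clones of a genotype gave IRAK4 an unadjusted p of 4.22e-05 and an adjusted p of 0.0680, the lowest unadjusted p of the 84 tested genes of the pathway lists. The next lowest were TLR10 (edgeR adjusted p = 0.122), lowest in clone J, and the protease CTSL (edgeR adjusted p = 0.339), which was at 436.5 CPM in J2 and between 53.6 and 176.9 CPM in the other libraries. These genes were chosen after their values were seen.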
